A study of Mus musculus with 15 samples.

Results

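The SLC25 family of mitochondrial carriers was followed in the fat around the mouse aorta. Its members were all protein-coding genes of the deposited count table whose symbol is Slc25a followed by a number. The rule found 47 genes of 43352 rows, on 19 chromosomes. It leaves out the uncoupling proteins Ucp1 to Ucp3, which belong to the same protein family but carry other symbols, and 1 pseudogene of Slc25a5. Of the 47 genes, 43 passed the filter on low counts and were tested.

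Perivascular adipose tissue (PVAT) was taken from the thoracic aorta (tPVAT) and the abdominal aorta (aPVAT) of mice aged 11 weeks. Control mice carried the Prdm16flox allele. The other genotype (Prdm16flox, AdipoQCre+; cKO) carried the same allele and in addition a Cre recombinase under the control of Adipoq, a gene switched on in adipocytes of every kind. Prdm16 encodes a transcriptional regulator of brown and beige fat. From tPVAT came 8 libraries, 4 of each genotype, and from aPVAT 7, with 4 controls and cKO numbers 1, 3 and 4. The RNA came from whole tissue, so cells without Cre contribute to every value, and for each gene fewer cells of a type and less RNA per cell cannot be told apart. Neither the floxed exon nor the sex of the mice is given in the labels. The labels do not say whether each sample came from a separate mouse, and the p-values cover no more than the spread among samples as labelled, which may be technical.

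SLC25 proteins sit in the inner mitochondrial membrane, apart from a few in peroxisomes or the outer membrane, and move metabolites between the matrix and the cytosol. Through them pass ADP, ATP and phosphate for oxidative phosphorylation, acylcarnitines for fatty acid oxidation, citrate for fat synthesis in the cytosol, amino acids, iron and most cofactors. Brown fat, to which tPVAT is close, is packed with mitochondria and burns fatty acids for heat, while white fat stores them. Carriers are made in the cytosol from nuclear genes and are brought to the inner membrane by a dedicated import route.

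The 15 libraries held 37761133 to 68735385 counts each. Levels are given as CPM, the counts of a gene per 1e+06 counts of its library, scaled by TMM, a method that sets libraries equal on the bulk of their genes. Transcripts of the mitochondrial genome took 34.5% ± 1.28 (SD, n = 4) of the counts in tPVAT controls, 29.9% ± 2.38 (n = 4) in tPVAT cKO, 14.4% ± 1.23 (n = 4) in aPVAT controls and 13.5% ± 0.311 (n = 3) in aPVAT cKO. Structural RNA took 0.929% of aPVAT control 2 and 2.24% of aPVAT cKO 4, against 0.0704% to 0.213% of the other 13 libraries, so results from aPVAT were also computed without these libraries. Prdm16 was at 46.4, 41.1, 46.3 and 55.6 CPM in tPVAT controls and 22.4, 21.2, 22.2 and 23.8 in tPVAT cKO (log2 fold change -1.08, SE 0.0970, adjusted p = 2.22e-06). In aPVAT it was at 26.8, 21.4, 23.3 and 23.4 CPM in controls and 15.1, 14.7 and 18.3 in cKO (log2 fold change -0.57, SE 0.105, adjusted p = 0.00992). No library went against its label, and the gene kept part of its transcript level in both depots. All 6 adipocyte markers were present in every library, with a summed level of 10290 to 14035 CPM.

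Per kilobase of exon, the scale on which different genes can be compared, 1 carrier stood above the rest. Slc25a1, the citrate carrier that supplies the cytosol with the carbon for fatty acid synthesis, had the highest level in all 4 groups. It held 360.3 CPM per kilobase in tPVAT controls, 461 in tPVAT cKO, 302 in aPVAT controls and 467 in aPVAT cKO. Of the family's summed level per kilobase, this 1 gene made up 24.1%, 30.8%, 33.7% and 44.2% in that order. Slc25a5, an ADP/ATP carrier, was second in every group, at 174 CPM per kilobase in tPVAT controls and 93.9 in aPVAT cKO. In tPVAT controls there followed Slc25a4, the ADP/ATP carrier of heart and muscle, at 138, Slc25a39, which imports glutathione, at 119, Slc25a51, which imports NAD, at 107, and Slc25a20, which brings acylcarnitines into the matrix, at 104. By the length of the longest transcript Slc25a1 stayed first in every group, Slc25a39 and Slc25a20 moved ahead of Slc25a4 in tPVAT controls, and Slc25a10 moved ahead of Slc25a5 in aPVAT cKO.

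Below the top the order differed between groups. Slc25a10, the dicarboxylate carrier, which exchanges malate or succinate for phosphate, ranked 19 in tPVAT controls (13.9 CPM per kilobase), 10 in tPVAT cKO (47.0), 5 in aPVAT controls (45.8) and 3 in aPVAT cKO (80.2). Slc25a48 moved as far the other way, with ranks of 20, 24, 33 and 36 in the same order of groups. At the other end, Slc25a2, Slc25a18, Slc25a41 and Slc25a54 had at most 15 counts in any library and were not tested. Within groups the members were steady: the coefficient of variation, averaged over the 4 groups, was under 10% for 22 of the 43 tested members, with a median of 9.66%. The steadiest was Slc25a3, the phosphate carrier, at 4.21%. It was over 25% for 5 members (Slc25a21, Slc25a31, Slc25a34, Slc25a43 and Slc25a48), of which Slc25a34 and Slc25a48 had a mean level above 10 CPM.

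The first comparison asked how the loss of Prdm16 in adipocytes bears on the carriers of tPVAT. Of the 43 tested members 10 changed (adjusted p under 0.05, edgeR quasi-likelihood test), 3 upward and 7 downward, against 12.0% of all 19645 genes tested (5.44% higher, 6.61% lower). The median log2 fold change over the tested members was -0.11, and over all genes -0.01. The carriers that rose were Slc25a10, Slc25a25 and Slc25a1. Those that fell were Slc25a48, Slc25a15, Slc25a20, Slc25a11, Slc25a35, Slc25a23 and Slc25a4. When 1 library was left out the count went down to 6 (without tPVAT control 1, control 3, cKO 2 or cKO 3) and up to 12. Over all genes the count then ranged from 1708 to 3273. On plain library totals 4 rose, Slc25a3 in addition, and 4 fell (Slc25a11, Slc25a15, Slc25a20 and Slc25a48), against 7.64% of all genes higher and 3.78% lower. The groups did not overlap for 13 of the 43 members, and for 23.2% of all genes.

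Marker genes of other cell types differed with genotype in tPVAT as well. The summed level of 6 thermogenic adipocyte markers was 5398 to 6600 CPM in tPVAT cKO against 8500 to 9236 in controls. Of the 6 genes 1, Cox8b, passed. For 4 of the 6 every cKO library lay below every control, and for 23.2% of all genes the groups did not overlap in either direction. Endothelial markers summed to 619 to 641 against 701 to 793 CPM, and 2 of 4, Kdr and Tie1, were lower. The 4 smooth muscle markers summed to 1684 to 1885 CPM in tPVAT cKO against 1965 to 2607 in controls, and none passed (3 had an unadjusted p under 0.05, all lower). None of 8 skeletal muscle, 5 macrophage, 5 lymphocyte, 4 fibroblast and 3 red blood cell markers passed; of 3 markers of liver or kidney epithelium 1 could be tested and did not pass, and Umod was at 0 in all 15 libraries. Skeletal muscle markers summed to 76.4 CPM in tPVAT control 4, against 6.94 to 20.9 in the other 7 tPVAT libraries. The part of these cells in the genotype differences of the carriers was not tested.

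**Figure D1:**
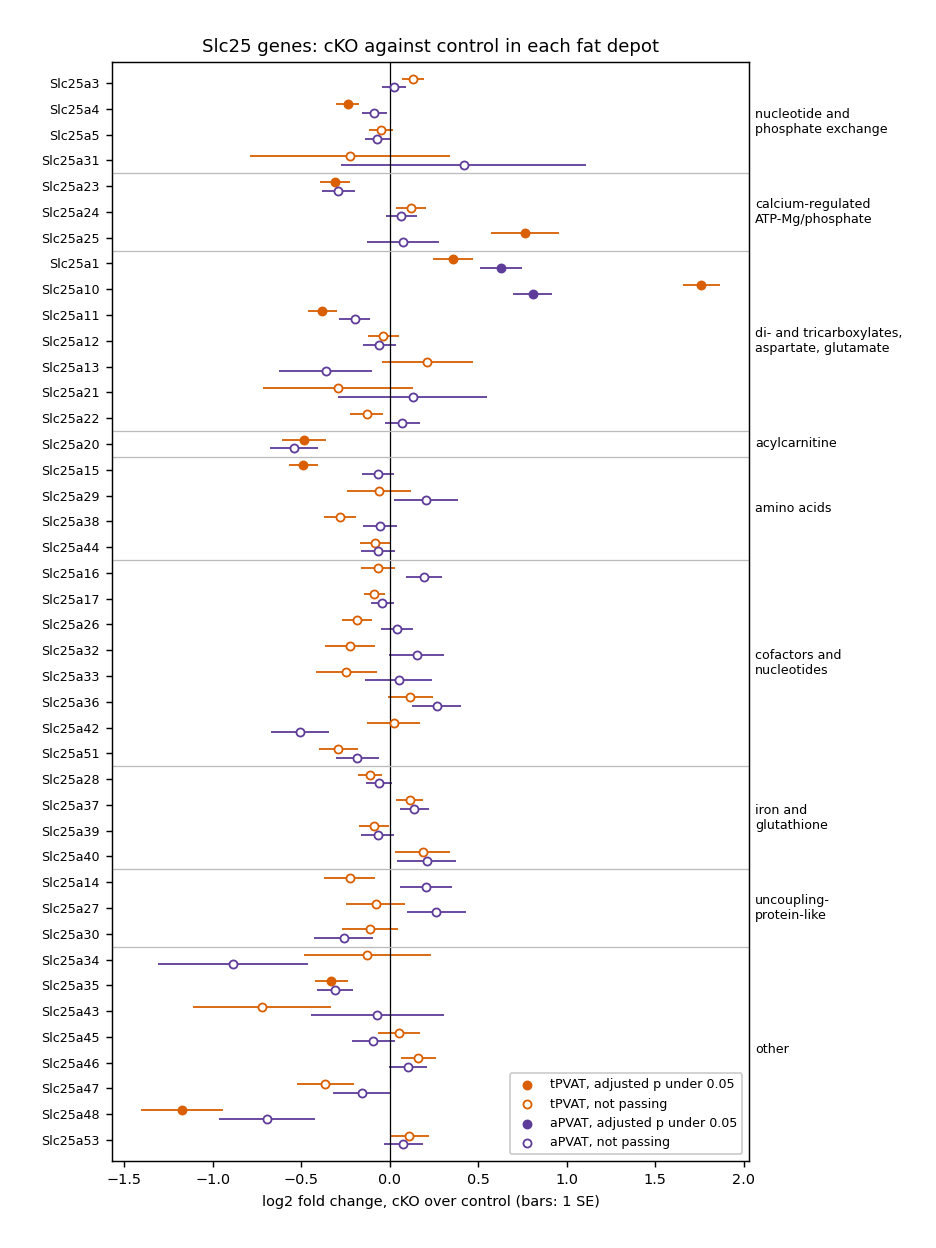
Log2 fold change of cKO over control for 42 of the 43 tested Slc25 genes in tPVAT and in aPVAT, grouped by what they carry, with bars of 1 SE. Filled points have an adjusted p under 0.05 (10 genes in tPVAT, 2 in aPVAT), and Slc25a10 lies farthest to the right in both depots.

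Slc25a10 (ENSMUSG00000025792, chr11:120491840-120499187, plus strand, mm10) showed the largest change. Its level was 43.3, 54.4, 46.2 and 47.7 CPM in the 4 tPVAT controls and 174, 167, 169.6 and 139 in the 4 tPVAT cKO libraries. Every cKO library lay above every control, with a mean of 162 ± 16.1 (SD, n = 4) against 47.9 ± 4.68 (n = 4). The rise was 3.39-fold (log2 fold change 1.76, SE 0.106, adjusted p = 2.94e-08). Control aPVAT held 158 ± 14.2 (n = 4), a range that overlaps that of tPVAT cKO. Of the 47 members, 12 share exon bases with a gene on the opposite strand: for Slc25a10 these are 228 bases of the predicted gene Gm11788. The library kit is stranded, but no strand setting of the counting is given in the sources used here, so reads of such neighbours cannot be told apart. The summed level of 6 adipocyte markers was also higher in tPVAT cKO (13202 to 14035 CPM, against 10290 to 11016), and 3 of the 6 (Adipoq, Plin1 and Fabp4) passed; their part in the result was not tested.

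Slc25a1 (ENSMUSG00000003528, chr16:17925223-17928219, minus strand) was at 648, 879, 773 and 819 CPM in tPVAT controls and 1029, 980.5, 1084 and 901 in tPVAT cKO. The lowest cKO library was just above the highest control. The change passed narrowly (log2 fold change 0.36, SE 0.111, adjusted p = 0.0483). It did not pass in 15 of 26 alternative settings. Among these are the fits without tPVAT control 1 (adjusted p = 0.144), control 3 (0.0966), control 4 (0.0764), cKO 1 (0.109), cKO 2 (0.0807) and cKO 3 (0.131). It was also lost without aPVAT control 2 (0.0510), aPVAT control 4 (0.0620) or aPVAT cKO 3 (0.0505), which share the estimate of spread.

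Slc25a25 (ENSMUSG00000026819, chr2:32414487-32451445, minus strand), a carrier of ATP-Mg and phosphate that calcium switches on, held 14.9, 11.1, 9.30 and 12.4 CPM in tPVAT controls and 23.4, 25.3, 17.0 and 15.5 in tPVAT cKO. The groups did not overlap, though cKO 4 lay within 1 CPM of control 1. It rose 1.70-fold (log2 fold change 0.76, SE 0.193, adjusted p = 0.0164). Naif1 overlaps 379 of its exon bases on the other strand. Without tPVAT control 3 (adjusted p = 0.0552), cKO 1 (0.0546) or cKO 2 (0.0527) it did not pass. Its relative Slc25a23 (ENSMUSG00000046329, chr17:57043711-57059863, minus strand), which shares 168 exon bases with Gm17168 on the other strand, fell, from 198, 193, 201 and 210.1 CPM to 155, 158, 156 and 178 (log2 fold change -0.31, SE 0.0840, adjusted p = 0.0239). It did not pass once tPVAT control 3 was left out (adjusted p = 0.0522), nor without control 4 (0.0714), cKO 1 (0.0722) or cKO 3 (0.0689). The third of these carriers that was tested, Slc25a24, had a log2 fold change of 0.12 (adjusted p = 0.397).

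The largest fall was in Slc25a48 (ENSMUSG00000021509, chr13:56438355-56474239, plus strand), which imports choline into mitochondria. Its level was 36.0, 26.7, 39.2 and 37.6 CPM in tPVAT controls and 17.6, 10.7, 13.4 and 20.2 in tPVAT cKO. All cKO libraries lay below all controls, and the mean level was 0.444 of the control level (log2 fold change -1.17, SE 0.232, adjusted p = 0.00334). Slc25a20 (ENSMUSG00000032602, chr9:108662088-108684641, plus strand), through which long-chain fatty acids reach the matrix as acylcarnitines, was at 537, 469.8, 500.3 and 509 CPM in controls and 371, 310.1, 358 and 402 in cKO. These groups were apart as well, every cKO library being the lower (fold 0.715, log2 fold change -0.48, SE 0.126, adjusted p = 0.0191). Without tPVAT control 1 the adjusted p was 0.0564.

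A carrier of the malate-aspartate shuttle and 1 of the amino acid carriers also fell. Slc25a11 (ENSMUSG00000014606, chr11:70644196-70647479, minus strand), which exchanges malate for oxoglutarate in that shuttle, was at 135, 144, 135 and 127 CPM in tPVAT controls and 101, 95.6, 106 and 113 in cKO. All 4 cKO libraries were below the lowest control (log2 fold change -0.38, SE 0.0822, adjusted p = 0.00608); exons of Rnf167 overlap 189 bases of it on the other strand. The other arm of that shuttle did not pass: Slc25a12, an aspartate/glutamate carrier, had a log2 fold change of -0.04 (adjusted p = 0.840) and its relative Slc25a13 0.21 (0.649). Slc25a15 (ENSMUSG00000031482, chr8:22375551-22398597, minus strand), the ornithine carrier of the urea cycle, was at 22.9, 20.9, 23.5 and 22.2 CPM in controls and 16.5, 14.0, 16.1 and 17.2 in cKO (log2 fold change -0.49, SE 0.0818, adjusted p = 0.000965), with no overlap. Slc25a10, Slc25a11, Slc25a15 and Slc25a48 passed in all 26 alternatives. Of the other amino acid carriers, Slc25a38, which brings in glycine for heme synthesis, had a log2 fold change of -0.28 (adjusted p = 0.0576). Slc25a44, which imports branched-chain amino acids, had -0.08 (0.587).

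Among the carriers of oxidative phosphorylation only Slc25a4 (ENSMUSG00000031633, chr8:46206797-46211284, minus strand) passed of 4 tested. It was at 336, 322, 326 and 311 CPM in tPVAT controls and 264, 258, 282 and 294 in cKO (log2 fold change -0.24, SE 0.0669, adjusted p = 0.0290), a small fall with no overlap. Its near relative Slc25a5 had -0.05 (0.683). Slc25a3 had 0.13 (0.189), and passed as a rise with limma voom (adjusted p = 0.0499) and with the libraries of these 2 groups alone (0.0329). With plain library totals Slc25a3 also passed as a rise (0.0492), while Slc25a4 did not pass (0.0914). The ratio of Slc25a4 to Slc25a5 per kilobase was 0.789 ± 0.0204 (SD, n = 4) for control tPVAT against 0.692 ± 0.0296 (n = 4) for cKO, 2 ranges that did not meet. It was 0.842 ± 0.0280 (n = 4) and 0.832 ± 0.0317 (n = 3) in aPVAT. The summed level of 6 heart muscle markers was 183 to 252 CPM in tPVAT controls and 65.3 to 188 in tPVAT cKO, and 2 of the 6 (Actc1 and Nppa) were lower. Myl7 and Nppa were at 0 in aPVAT cKO 4 and present in every tPVAT library; the part of heart muscle in the fall of Slc25a4 was not tested. The fall no longer passed when 1 library was left out, whether tPVAT control 1 (adjusted p = 0.0819), control 2 (0.0611), control 3 (0.0651), cKO 1 (0.0877), cKO 2 (0.0619) or cKO 3 (0.0516). Slc25a35 (ENSMUSG00000018740, chr11:68968131-68974365, plus strand), a carrier with no settled substrate, was at 144, 129, 126 and 153 CPM in controls and 116, 105, 107 and 109.8 in cKO (log2 fold change -0.33, SE 0.0930, adjusted p = 0.0290). An exon of Rangrf overlaps it by 1151 bases on the other strand. It did not pass without tPVAT control 1 (adjusted p = 0.0768), control 4 (0.0983), cKO 2 (0.0582), cKO 3 (0.0729) or cKO 4 (0.0616).

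**Figure D2:**
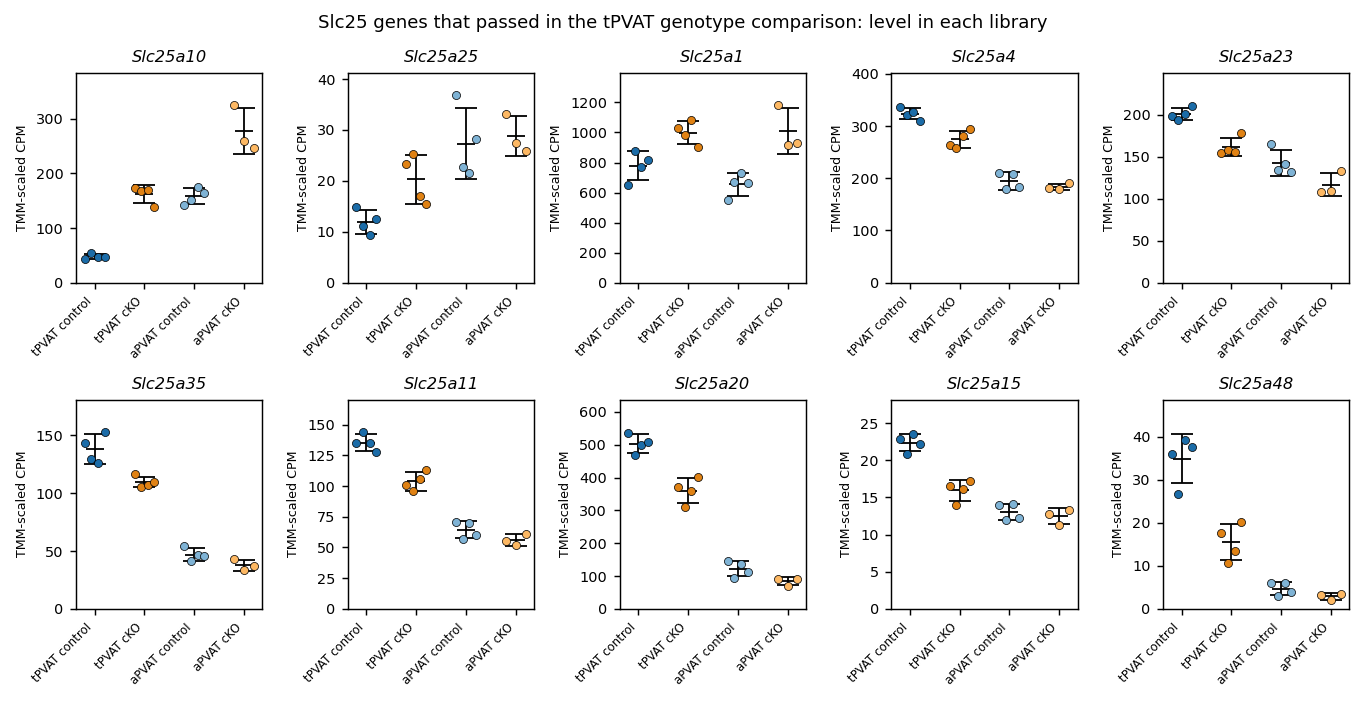
TMM-scaled CPM of the 10 Slc25 genes that passed in the tPVAT genotype comparison, 1 point per library, with the group mean and SD (n = 4, 4, 4 and 3). Slc25a10 steps up from tPVAT controls (43.3 to 54.4 CPM) to aPVAT cKO (246 to 325), while Slc25a20 and Slc25a48 step down across the same groups.

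No cofactor or nucleotide carrier passed in tPVAT, of 9 tested. Their log2 fold changes lay between -0.29 and 0.12, with Slc25a51 at -0.29 (adjusted p = 0.107). None of the 4 carriers of iron and glutathione passed either (-0.11 to 0.19), nor any of the 3 members named for their likeness to uncoupling proteins, Slc25a14, Slc25a27 and Slc25a30 (-0.23 to -0.08). At an unadjusted p under 0.05 there were 16 members in tPVAT, and 26% of all genes.

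In aPVAT 2 of the 43 members changed, Slc25a10 and Slc25a1, both upward, against 1.53% of all genes (0.743% higher). The median was -0.05 over the members and -0.01 over all genes. Slc25a10 was at 143, 151, 175 and 164 CPM in aPVAT controls and 325, 259.8 and 246 in aPVAT cKO, with no overlap and a 1.75-fold rise (log2 fold change 0.81, SE 0.109, adjusted p = 0.000713). Slc25a1 was at 553, 671, 729.8 and 661 CPM in controls and 1185, 918 and 929 in cKO, also apart, with a 1.55-fold rise (log2 fold change 0.63, SE 0.119, adjusted p = 0.0114). Without aPVAT cKO 1, the highest of the 3, Slc25a1 had an adjusted p of 0.0812. No summed marker list was apart between these groups other than that of thermogenic adipocytes (670.3 to 1143 CPM in controls, 116 to 178 in cKO). In that list 4 of 6 genes fell. Of 4 fibroblast markers 1 fell, and all 4 had a negative log2 fold change. None of 5 macrophage and 5 lymphocyte markers passed, though all were negative. An unadjusted p under 0.05 was found for 4 of the macrophage and 2 of the lymphocyte markers. The part of these cells was not tested.

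Slc25a20 was at 146, 94.8, 138 and 112 CPM in aPVAT controls and 91.3, 70.0 and 92.2 in aPVAT cKO. The groups did not overlap, but the difference did not pass (log2 fold change -0.54, SE 0.138, adjusted p = 0.0675). It passed without aPVAT control 2, the lowest control (-0.65, adjusted p = 0.0124), without the 2 libraries rich in structural RNA (-0.72, adjusted p = 0.0166) and with the DESeq2 Wald test (-0.54, adjusted p = 0.00844). Without both libraries 4 members passed, against 362 of all 19824 genes tested. Slc25a23 was the fourth beside Slc25a1, Slc25a10 and Slc25a20 (-0.43, adjusted p = 0.0377). Slc25a48 was at 5.99, 2.94, 5.95 and 3.91 CPM in controls and 3.32, 2.04 and 3.47 in cKO, and these groups overlapped (log2 fold change -0.69, SE 0.274, adjusted p = 0.296). The groups were apart for 3 members (Slc25a1, Slc25a10 and Slc25a20) and for 9.56% of all genes. At an unadjusted p under 0.05 there were 9 members and 12.4% of all genes. On plain library totals 3 members passed, Slc25a20 as a fall beside the 2 rises, while 115 of all genes were higher and 199 lower.

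The effect of genotype differed between depots for 1 member, Slc25a10, of 43, against 0.784% of all genes (0.158% with a positive and 0.626% with a negative interaction). Its rise on the log2 scale was smaller in aPVAT by 0.95 (interaction, aPVAT effect minus tPVAT effect, -0.95, SE 0.152, adjusted p = 0.00469). The mean level went from 47.9 to 162 CPM in tPVAT and from 158 to 277 in aPVAT. The ratio of Slc25a10 to Slc25a11 per kilobase, both of which carry malate, was 0.217 ± 0.0169 (SD, n = 4) in tPVAT controls and 0.966 ± 0.149 (n = 4) in tPVAT cKO. It was 1.52 ± 0.199 (n = 4) in aPVAT controls and 3.05 ± 0.571 (n = 3) in aPVAT cKO, so each cKO group lay above its control group. For Slc25a1 (0.27, adjusted p = 0.723), Slc25a25 (-0.69, 0.459) and Slc25a48 (0.48, 0.809) the interaction did not pass, which does not show that the depots responded alike.

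The sequence upstream is shown for 4 chosen members, and other members that changed are not shown. The 4 are the 2 carriers that rose in both depots, Slc25a48 (the largest fall in tPVAT) and Slc25a20 (the step before fatty acid oxidation). Each promoter is given as the 250 bases before the start of transcription in RefSeq (GRCm38.p6), read 5′ to 3′ on the strand of the gene. Capitals mark CACGTG (an E box) and CCAAT on either strand, of 4 motifs searched; the other 2 were AAGGTCA, bound by nuclear receptors of the ERR type, and TCACNCCAC, a sterol regulatory element. The windows lie at chr11:120491587-120491836, plus strand (Slc25a10), chr16:17928220-17928469, minus strand (Slc25a1), chr13:56438105-56438354, plus strand (Slc25a48) and chr9:108661886-108662135, plus strand (Slc25a20).
Slc25a10: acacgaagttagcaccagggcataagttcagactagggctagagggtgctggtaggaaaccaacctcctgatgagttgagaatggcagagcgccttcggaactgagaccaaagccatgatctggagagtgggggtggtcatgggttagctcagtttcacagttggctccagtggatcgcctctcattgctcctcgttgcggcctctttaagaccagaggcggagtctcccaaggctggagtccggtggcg
Slc25a1: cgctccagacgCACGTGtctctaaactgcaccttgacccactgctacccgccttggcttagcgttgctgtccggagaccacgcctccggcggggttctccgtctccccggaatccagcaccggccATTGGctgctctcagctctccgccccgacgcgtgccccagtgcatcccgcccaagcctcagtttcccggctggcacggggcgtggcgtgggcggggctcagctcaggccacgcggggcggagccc
Slc25a48: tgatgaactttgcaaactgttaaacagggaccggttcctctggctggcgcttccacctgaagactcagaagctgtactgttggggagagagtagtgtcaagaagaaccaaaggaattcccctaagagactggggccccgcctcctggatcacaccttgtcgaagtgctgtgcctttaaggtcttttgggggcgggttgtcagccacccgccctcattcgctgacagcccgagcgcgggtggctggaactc
Slc25a20: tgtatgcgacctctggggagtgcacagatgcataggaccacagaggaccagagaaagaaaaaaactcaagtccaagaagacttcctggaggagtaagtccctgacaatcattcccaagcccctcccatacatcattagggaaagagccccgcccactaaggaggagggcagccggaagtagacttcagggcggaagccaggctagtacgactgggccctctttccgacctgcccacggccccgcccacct
Of the windows shown, only that of Slc25a1 holds a match, 1 E box and 1 CCAAT on the opposite strand (ATTGG as printed). Of the 36 members with a RefSeq promoter, 7 hold CACGTG (19.4%, against 6.86% of 27025 genes) and 18 hold CCAAT (50%, against 37.5%). No filter for protein-coding genes was applied to the 27025, whereas the members are all protein coding. AAGGTCA lies in 1 (Slc25a34, 2.78%, against 4.70%) and TCACNCCAC in 1 (Slc25a18, 2.78%, against 1.22%). These are matches of letters, which describe the windows and show no binding.

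Between the depots most of the family differed. In controls 34 of the 43 members passed, 25 lower in aPVAT than in tPVAT and 9 higher, against 56.6% of all genes (27.3% lower, 29.3% higher). The median was -0.63 over the members and 0.04 over all genes. In cKO again 34 passed, 24 lower and 10 higher, against 52.6% of all genes (25.4% lower, 27.2% higher), with a median of -0.47 over the members and 0.04 over all genes. The same direction was called in both genotypes for 33 members, 24 lower and 9 higher. How many of all genes were called the same way in both genotypes was not counted. The groups were apart for 31 members in controls and 34 in cKO, and for 49.5% and 55.0% of all genes.

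These directions are relative to the scaling. TMM factors averaged 0.777 in tPVAT controls and 1.30 in aPVAT controls, and transcripts of the mitochondrial genome took the larger share of counts in tPVAT, as given above; the part of that share in the factors was not tested. With plain library totals instead, the median of all genes between the control depots moved from 0.04 to 0.78, and 14 members were lower and 19 higher, against 7.22% of all genes lower and 74.4% higher. In cKO 13 were lower and 19 higher, against 7.18% and 69.2%. Under both scalings and in both genotypes 12 members were lower, among them Slc25a11, Slc25a17, Slc25a20, Slc25a32, Slc25a34, Slc25a35, Slc25a39, Slc25a42, Slc25a46, Slc25a48 and Slc25a51. The 9 that were higher in aPVAT under both scalings and in both genotypes were Slc25a10, Slc25a12, Slc25a14, Slc25a24, Slc25a25, Slc25a27, Slc25a29, Slc25a30 and Slc25a45. Plain library totals raise the values of aPVAT over tPVAT, as the median of all genes shows. They therefore put only the lower calls to a test, and the higher calls were bound to stay. The share of all genes that meets this combined rule was not counted, so these lists cannot be set against it. With upper-quartile factors, 24 were lower and 11 higher in controls and 23 and 12 in cKO.

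**Figure D3:**
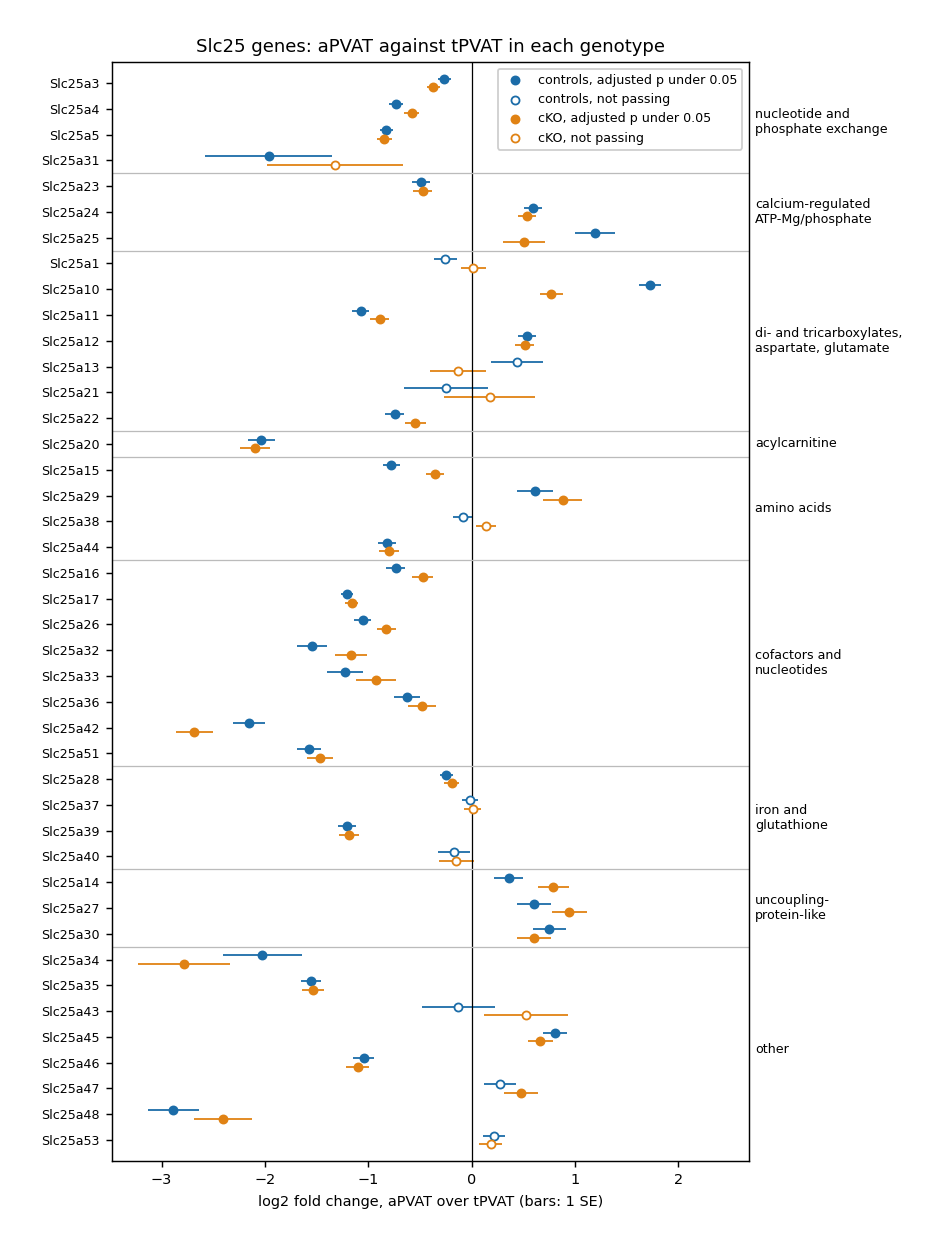
Log2 fold change of aPVAT over tPVAT for 42 of the 43 tested Slc25 genes in controls and in cKO, with TMM scaling, grouped by what they carry, with bars of 1 SE. All 8 cofactor and nucleotide carriers drawn lie left of 0 in both genotypes and the 3 uncoupling-protein-like members right of 0. With plain library totals Slc25a16 and Slc25a36 lie right of 0, and 12 members were lower and 9 higher in both genotypes among those called the same way here. Those totals move the values to the right, so they put only the lower calls to a test.

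With TMM scaling all 9 cofactor and nucleotide carriers were lower in aPVAT in both genotypes, with median log2 fold changes of -1.22 in controls and -1.16 in cKO. With plain library totals 7 of the 9 were lower in controls and 5 in cKO. The others did not pass: Slc25a16, a carrier linked to coenzyme A (0.01 in controls, 0.18 in cKO), Slc25a36 (0.12 and 0.18) and, in cKO, Slc25a26 (-0.18) and Slc25a33 (-0.27). Slc25a42, which imports coenzyme A, was at 146, 147, 156 and 168 CPM in tPVAT controls and 35.2, 28.4, 41.7 and 33.4 in aPVAT controls, with every aPVAT library far below (log2 fold change -2.15, SE 0.156, adjusted p = 1.20e-08). In cKO it was at 137, 117, 172 and 202 and 23.0, 21.4 and 28.9 (log2 fold change -2.68, SE 0.179, adjusted p = 7.66e-09). Slc25a51 had a log2 fold change of -1.57 in controls, the folate and FAD carrier Slc25a32 -1.54, the pyrimidine nucleotide carrier Slc25a33 -1.22 and the peroxisomal Slc25a17 -1.21. Slc25a26, which imports S-adenosylmethionine, had -1.05, and the second pyrimidine carrier Slc25a36 -0.63.

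Slc25a20, the acylcarnitine carrier, was lower in aPVAT too. It was at 537, 469.8, 500.3 and 509 CPM in tPVAT controls and 146, 94.8, 138 and 112 in aPVAT controls, with no overlap (fold 0.244, log2 fold change -2.04, SE 0.130, adjusted p = 2.86e-09). In cKO its log2 fold change was -2.09. The steepest difference in controls was that of Slc25a48, at 34.9 ± 5.62 CPM (SD, n = 4) in tPVAT and 4.70 ± 1.52 (n = 4) in aPVAT (log2 fold change -2.88, SE 0.248, adjusted p = 8.22e-08). Slc25a34, a carrier without a settled substrate, was at 25.4, 22.2, 12.8 and 21.5 CPM in tPVAT controls and 5.75, 6.82, 1.79 and 5.87 in aPVAT controls (-2.02, adjusted p = 0.000281). In cKO it had the largest depot difference of the family (-2.78, adjusted p = 8.15e-05), from 17.5, 18.4, 24.5 and 14.6 to 4.56, 2.25 and 1.11. Its libraries were uneven in every group. Slc25a35 (-1.56) and Slc25a46 (-1.05), a protein of the outer membrane, were lower as well.

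All 4 carriers of ADP, ATP and phosphate were lower in aPVAT controls with TMM scaling, and 1 of them was higher with plain library totals. With TMM scaling Slc25a5 had -0.82, Slc25a4 -0.73 and Slc25a3 -0.26 in controls, each past the threshold. With plain library totals Slc25a3 was higher in aPVAT (0.48, adjusted p = 3.78e-06), while Slc25a4 (0.01) and Slc25a5 (-0.08) did not pass. The germ cell ADP/ATP carrier Slc25a31 passed in controls (-1.96, adjusted p = 0.0125) at levels of at most 1.66 CPM, and not without tPVAT control 1 (adjusted p = 0.0746). Heart muscle markers summed to 11.6 to 16.6 CPM in aPVAT controls against 183 to 252 in tPVAT controls, with 6 of 6 lower; their part in the depot difference of Slc25a4 was not tested.

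Malate, citrate and glutamate carriers split. Slc25a10 was higher in aPVAT (controls log2 fold change 1.72, SE 0.105, adjusted p = 1.71e-09; cKO 0.77), as was Slc25a12 (0.54 and 0.51), at 13.5, 13.9, 13.2 and 15.4 CPM in tPVAT controls and 21.3, 19.3, 20.2 and 20.5 in aPVAT controls. Slc25a11 (-1.07) and the glutamate carrier Slc25a22 (-0.74) were lower in aPVAT controls, and with plain library totals Slc25a22 did not pass (0.0021). Slc25a1 did not pass in either genotype (-0.25, adjusted p = 0.0629 in controls), and its direction depended on the setting. In controls it passed as lower in aPVAT with DESeq2's size factors (adjusted p = 0.0483), with the DESeq2 Wald test (0.0438) and without aPVAT control 3 (0.0392), tPVAT control 1 (0.0194) or aPVAT cKO 1 (0.0435). With plain library totals it was higher in aPVAT (0.49, adjusted p = 0.00116).

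Among amino acid carriers Slc25a44 (-0.82) and Slc25a15 (-0.78) were lower in aPVAT controls, and Slc25a29, a carrier of basic amino acids, was higher (0.61). With plain library totals Slc25a44 (-0.07) and Slc25a15 (-0.03) did not pass. In cKO Slc25a15 went from lower (-0.36, adjusted p = 0.00349) to higher (0.30, adjusted p = 0.00141) with plain library totals. The ATP-Mg carriers moved apart from each other. Slc25a25 was higher in aPVAT (36.8, 22.7, 21.6 and 28.3 CPM in controls, log2 fold change 1.19) and so was Slc25a24 (0.59), while Slc25a23 was lower (-0.49) or, with plain library totals, higher (0.25). Per kilobase, Slc25a23 stood 25.6 ± 5.07 (SD, n = 4) times above Slc25a25 in tPVAT controls, 12.4 ± 3.64 (n = 4) in tPVAT cKO, 7.99 ± 1.46 (n = 4) in aPVAT controls and 6.13 ± 1.41 (n = 3) in aPVAT cKO. In cKO the depot difference of Slc25a25 was 0.50 (adjusted p = 0.0466), and it did not pass without aPVAT cKO 1 (0.177), aPVAT cKO 3 (0.0720), aPVAT cKO 4 (0.0510), tPVAT cKO 3 (0.117), tPVAT cKO 4 (0.131), tPVAT control 2 (0.0541), tPVAT control 4 (0.0562) or aPVAT control 4 (0.0550).

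Of the iron and glutathione carriers, Slc25a39 was at 336, 311, 325 and 336 CPM in tPVAT controls and 162, 119, 149 and 138 in aPVAT controls (log2 fold change -1.21, SE 0.0856, adjusted p = 9.18e-09). Its homologue Slc25a40 did not pass (-0.17, adjusted p = 0.368), was higher with plain library totals (0.58, adjusted p = 0.00391; in cKO 0.51, adjusted p = 0.0134) and was present at 5.01 ± 0.382 CPM (SD, n = 4) in tPVAT controls. Slc25a28, an iron importer, was lower by a small margin (-0.24, adjusted p = 0.00517), not with upper-quartile factors (adjusted p = 0.0667), and higher with plain library totals (0.50). The second iron importer, Slc25a37, known from red cell precursors, did not pass (-0.02), and with plain library totals it was higher in aPVAT controls (0.73, adjusted p = 1.46e-07). It held 14.6, 13.2, 14.9 and 15.2 CPM in tPVAT controls and 13.6, 13.8, 14.3 and 15.6 in aPVAT controls, while the summed red blood cell markers were at 376 to 659 and 134 to 231 CPM, with 3 of 3 lower in aPVAT.

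All 3 uncoupling-protein-like members were higher in aPVAT in both genotypes. Slc25a30 was at 6.43, 4.07, 6.09 and 6.44 CPM in tPVAT controls and 11.8, 7.28, 8.82 and 10.8 in aPVAT controls (0.75, adjusted p = 0.000658). Slc25a27 had 0.60 and Slc25a14 0.36 (adjusted p = 0.0397), each at under 4 CPM in every control library. Slc25a14 lost its call in controls without tPVAT control 1 (0.0894) or 2 (0.127), or without aPVAT control 1 (0.0781), 3 (0.0774) or 4 (0.0900). Slc25a45 was higher too (0.81), at 3.01, 4.01, 4.00 and 4.79 CPM in tPVAT controls and 7.30, 6.58, 6.80 and 6.97 in aPVAT controls. Slc25a47, known as a liver carrier, passed in cKO (0.48, adjusted p = 0.0253), at under 2 CPM in every library, and not without aPVAT cKO 1 (0.115) or tPVAT cKO 2 (0.0716). In controls it did not pass (0.27), except with upper-quartile factors (0.37, adjusted p = 0.0491) and plain library totals (1.02, adjusted p = 1.06e-05). The interaction did not pass (adjusted p = 0.913).

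The other cell types of the tissue also differed between depots. In aPVAT controls 5 of 5 macrophage markers and 4 of 4 fibroblast markers were higher than in tPVAT controls, with summed levels of 486 to 635 against 276 to 324 CPM and 1973 to 2479 against 934 to 1185 CPM. All 6 thermogenic adipocyte markers were lower, with sums of 670.3 to 1143 against 8500 to 9236 CPM. These directions were the same with plain library totals, which raise the values of aPVAT and so put only the thermogenic falls to a test. The part of cell composition in the carriers' depot differences was not tested.

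Summed over all 47 members, the family held 4855 ± 38.9 CPM (SD, n = 4) in tPVAT controls, 4701 ± 211 (n = 4) in tPVAT cKO, 2743 ± 159 (n = 4) in aPVAT controls and 3080.1 ± 235 (n = 3) in aPVAT cKO. The depots were apart on this scale. On plain library totals the sums were 3770.0 ± 91.0, 3842 ± 18.8, 3573 ± 187 and 3961 ± 287 CPM, and the depots overlapped. Within each depot the TMM-scaled sums of the genotypes overlapped. This rested on Slc25a1 and Slc25a10, the carriers that rose in both depots. Without these genes the TMM-scaled sums were 3883 to 4142 CPM in tPVAT controls and 3254 to 3805 in tPVAT cKO, which were apart. In aPVAT they were then 1742 to 2094 CPM in controls and 1699 to 1851 in cKO, which overlapped. Without the rows of the mitochondrial genome the sums of all 47 members were 5706 to 5842 CPM in tPVAT controls and 5263 to 5617 in tPVAT cKO, which were apart. In aPVAT they were 3963 to 4423 CPM in controls and 4317 to 4977 in cKO, which overlapped. On that scale every aPVAT library lay below every tPVAT library. No test was run on these sums.

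**Figure D4:**
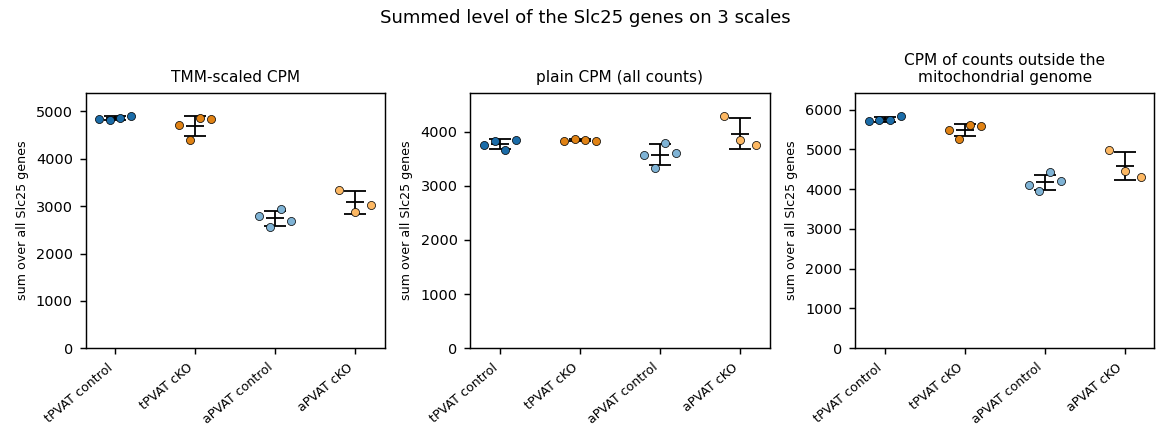
Sum of the 47 Slc25 genes in each library on 3 scales, with group mean and SD (n = 4, 4, 4 and 3). With TMM scaling the aPVAT libraries (2564 to 3338 CPM) lie below all tPVAT libraries (4401 to 4905), while on plain library totals the depots overlap. On counts outside the mitochondrial genome the depots are apart, and so are the genotypes in tPVAT.

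Other mitochondrial genes, in lists taken for comparison, are set beside the carriers. The lists were drawn up with earlier results of these data known. Of 33 nuclear-encoded subunits of the respiratory chain 31 fell in tPVAT cKO (median -0.39), among them, by smallest p, Sdhd (-0.60), Atp5e (-0.57), Ndufs3 (-0.55) and Ndufs7 (-0.54). In aPVAT cKO 5 fell, Cox7b, Sdhd, Sdhb, Uqcrc1 and Cox5a (median of the list -0.31), or 16 with plain library totals (median -0.33). Of all genes, 6.61% fell in tPVAT cKO and 0.789% in aPVAT cKO. All 33 subunits had a negative log2 fold change in both depots. An unadjusted p under 0.05 was found for 32 in each depot, against 26% of all genes in tPVAT and 12.4% in aPVAT. The interaction passed for none of the 33, which does not show that the depots responded alike. Between the control depots 33 of 33 were lower in aPVAT (median -1.58), and 32 of 33 with plain library totals (median -0.84). Of 13 genes that import carriers into the inner membrane, 2 fell in tPVAT cKO, Agk (-0.37) and Tomm22 (-0.27), and none in aPVAT cKO, where none had an unadjusted p under 0.05. With TMM scaling all 13 were lower in aPVAT controls than in tPVAT controls, against 5 lower and 3 higher with plain library totals. Of 20 other transporters and channels of mitochondria, 2 rose in tPVAT cKO, Mpc1 (0.53), a subunit of the pyruvate carrier, and Sfxn1 (0.44), which imports serine. Another 6 fell (3 with plain library totals), led by Sfxn5 (-0.74) and Abcb8 (-0.50). Whether the shares differ between these lists and the carriers was not tested.

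Enzymes that make or use what the carriers move also went both ways. Of 24 such genes, 3 rose in tPVAT cKO. Got1, the cytosolic aspartate aminotransferase of the malate-aspartate shuttle, was at 22.7, 23.1, 22.0 and 26.1 CPM in controls and 41.6, 36.6, 48.2 and 46.3 in cKO (log2 fold change 0.88, SE 0.115, adjusted p = 0.000100). Gpt2, the mitochondrial alanine aminotransferase (0.88), and Bcat2, which starts the breakdown of branched-chain amino acids (0.75), rose alongside. There were 6 falls, with the smallest p in Bckdha (-0.42), a subunit of the complex that oxidises the products of Bcat2. In aPVAT cKO 3 of the 24 fell: Cpt1b, an enzyme that makes the acylcarnitines that Slc25a20 carries, Pank1 and Ogdh. The other 21 did not pass, among them Cpt1a, a relative of Cpt1b. Cpt1b was at 3.45, 2.03, 3.59 and 1.80 CPM in aPVAT controls and 0.215, 0.334 and 0.214 in aPVAT cKO, far apart (log2 fold change -3.38, SE 0.291, adjusted p = 9.50e-06). The genotype effects of Cpt1b (-2.88), Got1 (-0.92) and Gpt2 (-0.64) differed between depots.

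Relatives outside the naming rule gave 3 changes in tPVAT cKO. Ucp2 was at 67.2, 121, 83.3 and 126 CPM in controls and 276, 266, 197 and 235 in cKO, a rise with no overlap (log2 fold change 1.30, SE 0.180, adjusted p = 0.000180). Mtch1 (-0.46) and Mtch2 (-0.28), carrier-like proteins of the outer membrane, fell. Ucp1, the uncoupling protein of brown fat, fell in aPVAT cKO (log2 fold change -4.84, SE 0.724, adjusted p = 0.00169), from 724, 363, 731 and 365 CPM to 5.56, 47.8 and 3.15. In tPVAT it was at 6358, 5935, 6581 and 6154 CPM in controls and 3995, 3497, 4325 and 4419.7 in cKO, with no overlap but no call (log2 fold change -0.62, adjusted p = 0.508). The test shares its estimate of spread with the aPVAT groups, where the Ucp1 libraries were uneven. The part of this in the missing call was not tested.

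**Figure D5:**
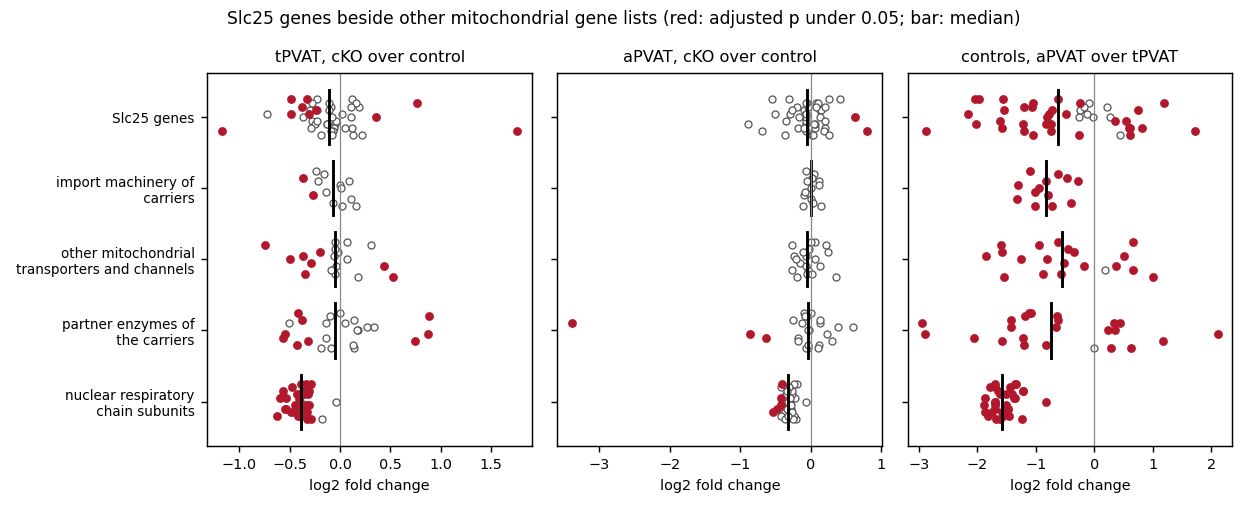
Log2 fold changes of the 43 tested Slc25 genes and of 4 other lists of mitochondrial genes, 1 point per gene, for genotype in tPVAT, genotype in aPVAT and depot in controls. Red points have an adjusted p under 0.05 and the bar is the median; the respiratory chain list lies wholly left of 0 in all 3 panels, while the Slc25 genes lie on both sides.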

How the data were processed

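The deposited values are raw counts of reads per gene in poly(A)-selected, stranded mRNA libraries from 15 samples. The submitters' processing notes name mm10, Salmon, Subread and DESeq2 1.42.1 with no role; which program counted, on which strand and with which annotation is not stated there or in the labels. Gene names and lengths came from GENCODE M21 (GRCm38), which held 42468 of 43352 IDs (884 did not match); promoters came from RefSeq GRCm38.p6.

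The counts were fitted in edgeR 4.0.16 (R 4.3.3) with TMM factors, filterByExpr at a minimum count of 10, 1 term for each of the 4 groups and the quasi-likelihood F test. P-values were adjusted by Benjamini-Hochberg over all 19645 genes tested, with a threshold of 0.05, and rows of the Slc25 genes were read out. Each SE was taken from the log2 fold change and its F value (the ratio of change to root F). Libraries were grouped by their labels. The fit was tested on simulated data. Totals of 37761133 to 68735385 counts leave counting error small beside the spread between libraries for most of the higher members. For members at a few CPM or less it was not separated from that spread.

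The members, lists and markers were chosen with earlier results of these data known. The named genes are Prdm16, a panel of 27 carriers, the 8 largest called rises and falls of each comparison, other members by their value within a role, the list genes with the 4 smallest p per genotype comparison, and genes in counts of 5 or fewer. Alternatives were DESeq2's size factors, upper-quartile factors, no rows of the mitochondrial genome, no filter, DESeq2 1.42.0, limma 3.58.1 voom with quality weights, fits of 2 groups, replicate blocks, and fits without 1 or 2 libraries. Fits on plain library totals were added after seeing the data. A search of the proteins for carrier repeats was not made. The values of 1 member are not reported here; it stays in the counts and medians.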

Additional observations from a re-analysis of the deposited data

Results flagged for a closer look

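The rise of Slc25a10 differed between depots in a test of the difference itself. As a fold change, the genotype effect was smaller in aPVAT than in tPVAT (interaction -0.95 on the log2 scale, SE 0.152, adjusted p = 0.00469, edgeR quasi-likelihood test). In CPM the mean went from 47.9 to 162 in tPVAT and from 158 to 277 in aPVAT, where the control level was higher. The difference in added CPM was not tested. The genotype effect was positive in both depots, with all 4 tPVAT cKO and all 3 aPVAT cKO libraries above their controls.

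Among members named here, 1 library stood far from the rest of its group of 4 in 4 of 102 groups looked at; chance alone flags about 1 in 20 groups. Slc25a14 was at 2.57 CPM in aPVAT control 2, where controls 1, 3 and 4 held 3.17 to 3.27. Slc25a23 was at 178 CPM in tPVAT cKO 4, against 155 to 158 in the others. Slc25a24 was at 14.5 CPM in tPVAT cKO 2, against 12.9 to 13.0 in the others. Slc25a30 was at 4.07 CPM in tPVAT control 2, against 6.09 to 6.44 in the others.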

How the results depend on the processing

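Of the named calls, 4 of 10 for genotype in tPVAT (Slc25a10, Slc25a11, Slc25a15 and Slc25a48), 1 of 2 in aPVAT (Slc25a10), 19 of 30 between control depots, 18 of 30 between cKO depots and the interaction of Slc25a10 passed in every alternative run. The tPVAT count of 10 members was 15 with voom, 13 with the libraries of those 2 groups alone and 8 on plain totals, and ranged from 6 to 12 when 1 library was left out (6 without tPVAT control 1, control 3, cKO 2 or cKO 3). The aPVAT count of 2 was 1 with 2 groups alone, 4 without aPVAT control 2 and cKO 4, and 2 to 3 without 1 library. Depot counts without 1 library were 33 to 36 in controls and 31 to 34 in cKO. Over all genes the counts without 1 library were 1708 to 3273 for genotype in tPVAT and 161 to 398 in aPVAT. They were 10242 to 11197 between control depots and 9090 to 11028 between cKO depots. Prdm16 in aPVAT was -0.55 (adjusted p = 0.0739) with 2 groups alone; without 1 library it ranged from -0.67 to -0.51 in aPVAT, not passing without cKO 1 (0.0692) or cKO 3 (0.0591), and from -1.14 to -0.99 in tPVAT. Over all genes, the tPVAT count of 2367 was 4080 with voom and 3726 with 2 groups alone; the aPVAT count of 301 was 605 with DESeq2, 92 with 2 groups alone and 161 without aPVAT cKO 1; the interaction count of 154 was 350 with DESeq2. Upper-quartile factors split all genes 7060 higher to 4400 lower between control depots (5750 to 5372 with TMM) and 6671 to 4014 in cKO (5341 to 4984). Plain library totals turned the sign of the control depot difference in Slc25a1 (0.49), Slc25a3 (0.48), Slc25a4 (0.014), Slc25a16 (0.014), Slc25a22 (0.0021), Slc25a23 (0.25), Slc25a28 (0.50), Slc25a37 (0.73), Slc25a21 (0.49), Slc25a36 (0.12), Slc25a38 (0.66), Slc25a40 (0.58) and Slc25a43 (0.61). In cKO they turned Slc25a3 (0.28), Slc25a4 (0.075), Slc25a15 (0.30), Slc25a16 (0.18), Slc25a22 (0.11), Slc25a23 (0.18), Slc25a28 (0.46), Slc25a13 (0.52), Slc25a36 (0.18) and Slc25a40 (0.51). This follows from the TMM factors, which differ between depots. The family's sum was 3770.0, 3842, 3573 and 3961 CPM on plain totals and 5759.9, 5486, 4172 and 4581 without mitochondrial-genome rows, in tPVAT controls, tPVAT cKO, aPVAT controls and aPVAT cKO. For libraries of equal replicate number, correlations of their deviations were -0.03 to 0.16 between depots and -0.22 to 0.17 between genotypes, over 7 pairs each. Unequal numbers of the same genotype gave -0.13 to 0.12 between depots. These ranges overlap and cannot decide whether equal numbers mark the same mouse. With the number as a replicate block 5 members passed in aPVAT and 11 in tPVAT, beside 312 and 2392 of all 19645 genes. With genotype and number as a random block 10 members passed in tPVAT, beside 2271 of all genes. The cause of other changes was not tested. Depth limits the 4 untested members and those under 1 CPM. For members at a few CPM counting error was not separated from the spread between libraries.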
